A study of Oryza sativa with 35 samples.

Results

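The flower of rice was compared with the middle of the flag leaf blade, a young reproductive organ against a mature green leaf, in Oryza sativa cultivar Nipponbare at the heading stage. All 6 arrays whose titles carry the names Flw (flower) and FLB-mid (flag leaf blade, middle) were taken, 3 for each organ, out of 35 arrays in the series. The flowers were collected at heading, before anthesis, and the blade pieces came from the uppermost leaf of the shoot. All plants grew in soil in a greenhouse with irrigation and added artificial light, and no mutant, transgene or treatment separates the organs. Panicle branches (PBr, 3 arrays), the axes that carry the flowers, were used as a second organ of the panicle, and flag blade tip and base (FLB-tip and FLB-bsl, 3 arrays each) are given where they bear on a leaf value. The remaining arrays, from internode I, nodes I and II, the flag leaf sheath and single whole blades, entered the normalization, and the replicated ones entered the shared estimate of the spread. The labels call the arrays of an organ biological replicates and leave unsaid whether each was taken from its own plants. The p-values therefore describe how these samples scatter, which may be technical in part.

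A rice flower, held in a spikelet, carries a lemma and palea, lodicules, stamens and a pistil. Which organ forms where is set by combinations of MADS-box transcription factors, in classes named A to E after the model worked out in Arabidopsis and snapdragon: class A genes act in the outer organs, class B in lodicules and stamens, class C in stamens and carpel, class D in the ovule, and class E together with all of them. The flag blade is the main source of sucrose for the panicle. It holds the photosystems, the Calvin cycle enzymes and the photorespiratory pathway at high level, while the flower is a sink that imports sucrose, cleaves it and builds new cell walls.

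Each of the 38673 probe sets tested was read as log2 of the deposited signal, floored at 1 and quantile normalized, and differences are flower minus blade on that log2 scale. A probe set was called when the Benjamini-Hochberg adjusted p of limma's moderated test was under 0.05 and the change was at least 2-fold. In the flower 6452 probe sets (16.7%) were higher and 8006 (20.7%) lower, so 37.4% of those tested were called. Rises were larger than falls: 1747 of the higher and 798 of the lower probe sets differed by at least 16-fold, and 261 against 55 by at least 256-fold. Among the 17087 genes with a probe set of their own, counted once each, 22.2% were higher and 20.1% lower, with a median difference of -0.04. Counts in the gene lists below are to be read beside these shares. The split between higher and lower calls depends on the scaling: it was 7968 against 6149 on the deposited scale and 5166 against 11352 with array medians set equal. The median over all probe sets was -0.17, and it was 0.12 on the deposited scale, -0.50 with array medians set equal and -0.23 when hybridization controls were equalized; each difference below is therefore relative to the bulk of probe sets. Replicates correlated at 0.945 to 0.947 within the flower and 0.922 to 0.932 within the blade over all probe sets tested. Means under 5.83, the median of all normalized values, are near the low end of the array, and there log2(signal + 16), which compresses low signals, gives smaller differences. Of the named genes called, 97 had a mean that low in 1 organ. All 97 kept their sign on log2(signal + 16), with differences smaller by 0.31 to 3.38 (median 1.06), and the value is printed for the genes with the largest changes.

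The second blade array stood apart from the other two among genes high in the flower. Over all probe sets tested it correlated with the flower arrays at 0.704 to 0.714, against 0.653 to 0.663 for the first and 0.680 to 0.691 for the third blade array. Of 136 named genes called higher, 70 had their highest blade signal on it, and in 19 it was over 2 log2 units above both others, against 3 for the first and 3 for the third array. Without the second blade array the rises of those 19 genes had to be larger, since the genes were picked for a high signal on it. The gain was 0.90 to 2.64, and all 19 were still called. Without it CPK2 rose by 12.16, EXPA32 by 11.87, ADF1 by 10.74 and SWEET5 by 9.02. The part of this array in other results was not tested beyond the values given without it.

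Flower markers matched the label of the flower, and green leaf markers matched that of the blade only in part. All 12 flower markers (MADS1, MADS2, MADS3, MADS4, MADS6, MADS7, MADS8, MADS13, MADS16, MADS21, MADS58 and DL) were higher in the flower, and their summed linear signal was 87296 to 100892 in the flower arrays against 1156 to 1527 in the blade arrays. Of the 8 green leaf markers matched, 4 were lower in the flower, none was higher and 1 was not tested. The 8 together summed to 118695 to 129029 in the flower and 221338 to 234177 in the blade. The flower thus held leaf-type transcripts at a high level too. Of 8 pollen markers 3 were matched, EXPB9, EXPB10 and SUT1, and they summed to 67427 to 76347 in the flower and 992 to 8452 in the blade, the highest on the second blade array. Of 9 tapetum markers 7 were matched, 4 of these were too low to be tested, none of the other 3 was called, and 6 had flower means under 5.83, namely TDR, EAT1, PTC1, CYP703A3, RTS and C6. Of 6 meiocyte markers 4 were matched, and they summed to 1091 to 1188 in the flower and 271 to 430 in the blade, with PAIR1 and DMC1 under 5.83 in both organs. The markers of dividing cells summed to 2217 to 2902 in the flower and 1502 to 1716 in the blade, and 8 of 13 were higher. Secondary wall markers, which are expressed in vascular and supporting tissue, summed to 6066 to 8202 in the flower and 86.4 to 166.5 in the blade. In bulk organs a cell type that is more frequent and a cell type with more RNA of a gene per cell cannot be told apart, which holds for every value below.

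Floral organ identity genes were higher in the flower almost throughout. Of 19 measured, 16 were higher in the flower, 2 were lower and 1, MADS34, was not called, with a median difference of 6.38, or 5.58 on log2(signal + 16), against -0.04 over all genes. Under each scaling the median stayed above 5, and 15 or 16 of the 19 were higher. 15 of the 19 had their highest mean of the 11 replicated groups in the flower. The plot of these genes by array shows how far the organs lie apart.

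**Figure D1:**
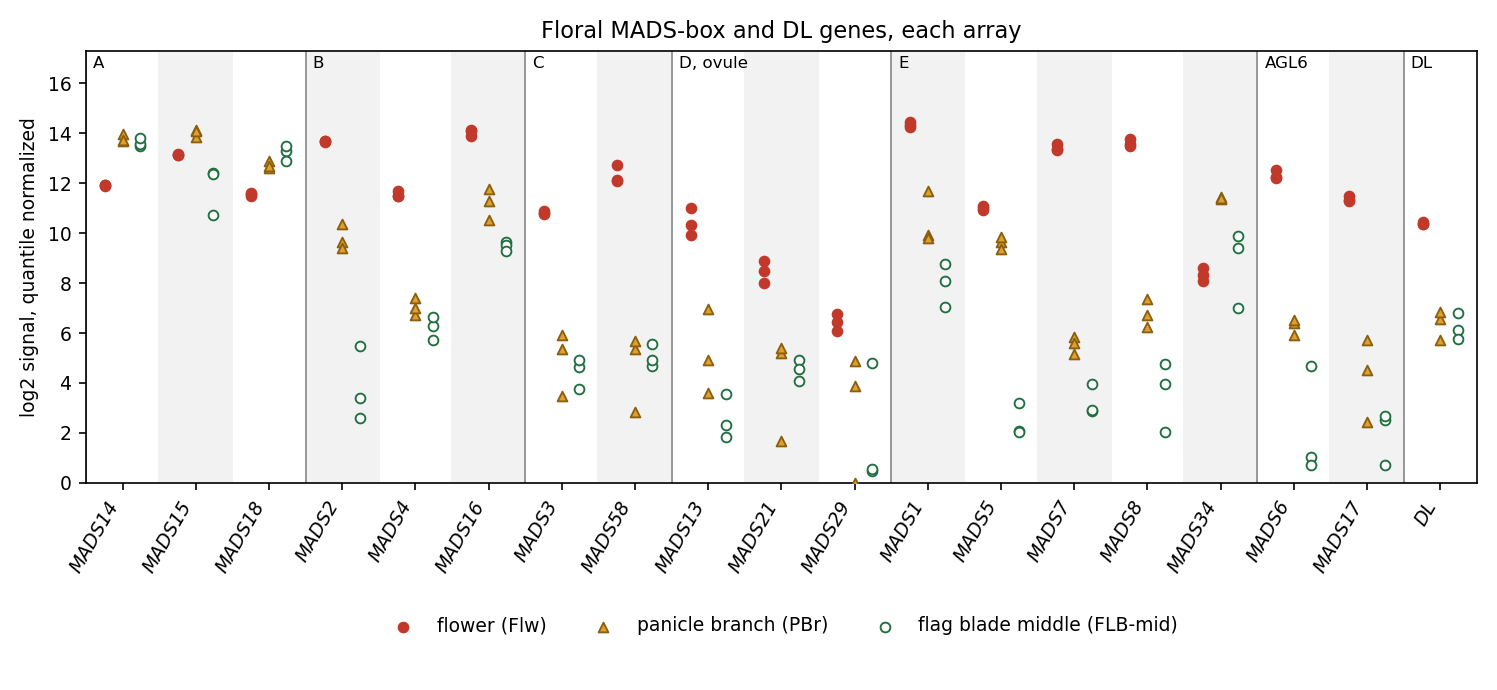
Log2 signal (vertical axis, quantile normalized) of 19 floral MADS-box and DL genes on each array of the flower (filled circles), panicle branch (triangles) and flag blade middle (open circles); each point is 1 array, 3 per organ, and genes are ordered by class. Flower arrays lie above blade arrays for all but MADS14, MADS18 and MADS34, and for MADS2 and MADS5 the panicle branch lies between the organs.

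Class B genes specify lodicules and stamens. MADS2, a PISTILLATA-type gene, had log2 signals of 13.69, 13.68 and 13.66 in the flower against 5.47, 3.42 and 2.58 in the blade. All flower arrays were far above all blade arrays, and the difference was 9.85 ± 0.76 (SE; adjusted p = 4.08e-10; 8.64 on log2(signal + 16)). Its partner MADS4 had 11.48, 11.50 and 11.69 in the flower against 5.73, 6.27 and 6.64 in the blade, a difference of 5.34 ± 0.57 (adjusted p = 5.39e-08). MADS16, the single APETALA3-type gene of rice, stood at 13.90, 14.13 and 14.10 in the flower and at 9.64, 9.53 and 9.30 in the blade. The groups did not overlap, but MADS16 was well measured in the leaf as well, so its rise was 23.5-fold (adjusted p = 1.19e-10).

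The class C gene MADS3, which acts mainly in stamens, had log2 signals of 10.78, 10.89 and 10.80 in the flower and 4.66, 4.91 and 3.77 in the blade. MADS58, the other class C gene, which acts in the determinacy of the flower and in the carpel, had 12.08, 12.74 and 12.12 in the flower and 4.66, 5.58 and 4.92 in the blade. For both, every flower array was above every blade array, with differences of 6.38 ± 0.71 and 7.26 ± 0.72 (adjusted p at most 1.00e-07), or 5.58 and 6.68 on log2(signal + 16). Class D and ovule genes were also higher: MADS13 by 7.84, MADS21 by 3.94 and MADS29, a gene of the nucellus and seed, by 4.47, the last at a low flower mean of 6.43. DL, the YABBY gene that specifies the carpel and forms the leaf midrib, had 10.36, 10.37 and 10.45 in the flower against 6.12, 6.80 and 5.78 in the blade. The DL arrays did not overlap and the rise was 17.9-fold (difference 4.16 ± 0.43, adjusted p = 3.86e-08).

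Class E genes, the SEPALLATA-type partners of all other classes, included the largest rises of the family. MADS7 had 13.34, 13.58 and 13.38 in the flower against 3.98, 2.90 and 2.90 in the blade, and its close relative MADS8 had 13.51, 13.78 and 13.55 in the flower against 4.76, 2.03 and 3.96 in the blade. Both were near background in the leaf and among the strong signals of the flower, with differences of 10.18 ± 0.87 and 10.03 ± 1.03 (adjusted p at most 2.87e-08; 8.74 and 8.70 on log2(signal + 16)). MADS1, the lemma and palea gene of the grass-specific branch, had 14.32, 14.44 and 14.24 in the flower and 8.75, 7.03 and 8.07 in the blade, where it was clearly above background, so the difference was smaller at 6.38 ± 0.60. MADS5, its relative, differed by 8.55 (6.56 on log2(signal + 16)). The AGL6-type genes MADS6 and MADS17 were also near background in the blade, with differences of 10.17 and 9.41 from blade means of 2.15 and 1.96 (7.76 and 7.03 on log2(signal + 16)). MADS34, a gene of panicle branching, was the exception: its flower arrays at 8.32, 8.59 and 8.10 overlapped its blade arrays at 7.01, 9.87 and 9.41, with a difference of -0.43 (95% interval -1.45 to 0.60), which was -1.30 and called without the first blade array and 0.13 without the second.

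The class A or FRUITFULL-type genes did not follow the other classes. MADS14, a promoter of flowering that acts in the shoot apex, fell in the flower: 11.92, 11.90 and 11.91 against 13.48, 13.58 and 13.80 in the blade. All blade arrays were above all flower arrays (-1.71 ± 0.21, adjusted p = 3.72e-07); 2 other probe sets of MADS14 were also lower and 1 was not called. MADS18 was lower too, at 11.55, 11.61 and 11.49 in the flower and 13.30, 12.87 and 13.50 in the blade. MADS15 was 2.47-fold higher (adjusted p = 0.00595), but its 3 other probe sets were not called, 1 of them with a difference of -0.20, and without the first blade array the difference was 0.76 and not called. The MADS15 call was also lost with hybridization controls set equal, in the fit of 6 arrays alone, and with array medians set equal (0.74). All 3 genes had means of at least 9.44 in each replicated group, and the MADS14 mean was 13.62 in the blade against 13.79 in the panicle branch.

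The floral genes were also read in the panicle branch, a level that other organs can share. Of the 19 floral genes, 14 were higher in the flower than in the panicle branch and 3 were lower (over all genes 16.6% and 16.5%), while 8 were higher in the panicle branch than in the blade and none lower (8.77% and 6.84% over all genes). MADS5 averaged 11.00 in the flower, 9.61 in the panicle branch and 2.45 in the blade, and the flower and the panicle branch did not differ beyond the spread (difference 1.38, adjusted p = 0.376). MADS2 lay between, with a panicle branch mean of 9.80, but its means in node I and node II were 9.79 and 9.52. MADS6 and MADS17 averaged 7.04 and 6.22 in node I, against 6.29 and 4.23 in the panicle branch. MADS34 was higher in the panicle branch, at 11.41, than in the flower, at 8.34 (difference -3.07, flower minus panicle branch, adjusted p = 2.33e-05). MADS3, MADS58 and DL had panicle branch means of 4.93, 4.63 and 6.38, which differed from the blade by 0.48, -0.42 and 0.15 and were not called. These contrasts share the flower or the blade arrays with the main one and are not separate evidence.

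MADS-box genes with vegetative roles ran the opposite way. Of 8 tested, 6 were lower in the flower and 1, MADS27, was higher, with a median of -1.59. MADS55, an SVP-type gene that acts in brassinosteroid response and represses flowering, had 5.79, 5.85 and 5.86 in the flower against 12.34, 12.16 and 12.61 in the blade. The arrays did not overlap, and the fall was 92.8-fold (-6.54 ± 0.26, adjusted p = 2.23e-14). Its relatives MADS22 and MADS47 differed by -2.49 and -1.28, MADS57, which acts in tillering, by -2.91, and MADS56 and MADS26 by -1.87 and -1.31. MADS47 lost its call without the first or second flower array or the third blade array (-1.21, -1.17 and -0.95), and on the deposited scale (-0.74) or with hybridization controls set equal (-1.07). MADS27, an ANR1-type gene of the nitrate response, had 10.12, 10.13 and 9.81 in the flower and 6.11, 5.62 and 4.34 in the blade. It was higher in the flower by 4.67 (4.17 on log2(signal + 16)), and its highest mean elsewhere was 5.40 in the flag blade tip.

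Genes of the clock and of day length response were mostly lower in the flower. Of 14, 8 were lower and 1, the photoreceptor gene PHYA, was higher by 1.03, with a median of -1.15; PHYA was not called under any of the 3 other scalings, nor without the second flower or the first blade array (0.91 and 0.86), and another PHYA probe set at 0.99 was under 2-fold. The heading date gene HD1 differed by -2.61, PHYC by -1.80, DTH8 by -1.58, and the pseudo-response regulators PRR95, PRR1, PRR37 and PRR73 by -1.35, -1.30, -1.20 and -1.11. EHD3, a promoter of heading, was lower by 1.30. DTH8 was not called on the deposited scale (-1.01), and PRR73 was at -0.86 over all its probe sets. Without the third flower array HD1 differed by -1.71, and without the second blade array PRR1 by -0.86, neither called. The labels give no hour of harvest for either organ. HD3A, the florigen that leaves make and the apex receives, had 11.39, 11.51 and 11.26 in the flower and 12.28, 12.27 and 10.57 in the blade. The HD3A groups overlapped and the difference was -0.32 (95% interval -1.68 to 1.04, adjusted p = 0.716); the flower level lay within the spread of the leaf level.

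The photosynthetic apparatus was lower in the flower, though not for some of its strongest signals. Of 9 genes tested, 6 were lower and none was higher, with a median of -1.44. RBCS, the small subunit of Rubisco, had 13.45, 13.21 and 13.13 in the flower against 14.90, 14.92 and 14.98 in the blade. The arrays did not overlap and the flower was 3.19-fold lower (-1.67 ± 0.21, adjusted p = 4.01e-07), which left RBCS among the strong signals of the flower. The photosystem I subunits PSAG and PSAH differed by -1.43 and -1.44, the Rieske protein petC by -1.82, the ferredoxin reductase LFNR1 by -2.20 and ndhM, a subunit of the chloroplast NDH complex, was 8.02-fold lower. The light harvesting gene CAB2R gave 15.19, 15.36 and 15.20 in the flower and 15.43, 15.10 and 15.30 in the blade, and plastocyanin, PETE, gave 14.98, 15.01 and 14.90 in the flower and 14.91, 14.95 and 14.92 in the blade. Neither CAB2R nor PETE differed beyond the spread (differences -0.03 and 0.03, 95% intervals -0.35 to 0.30 and -0.23 to 0.30), and both signals were at the upper end of the range of these arrays, where an array can saturate.

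**Figure D2:**
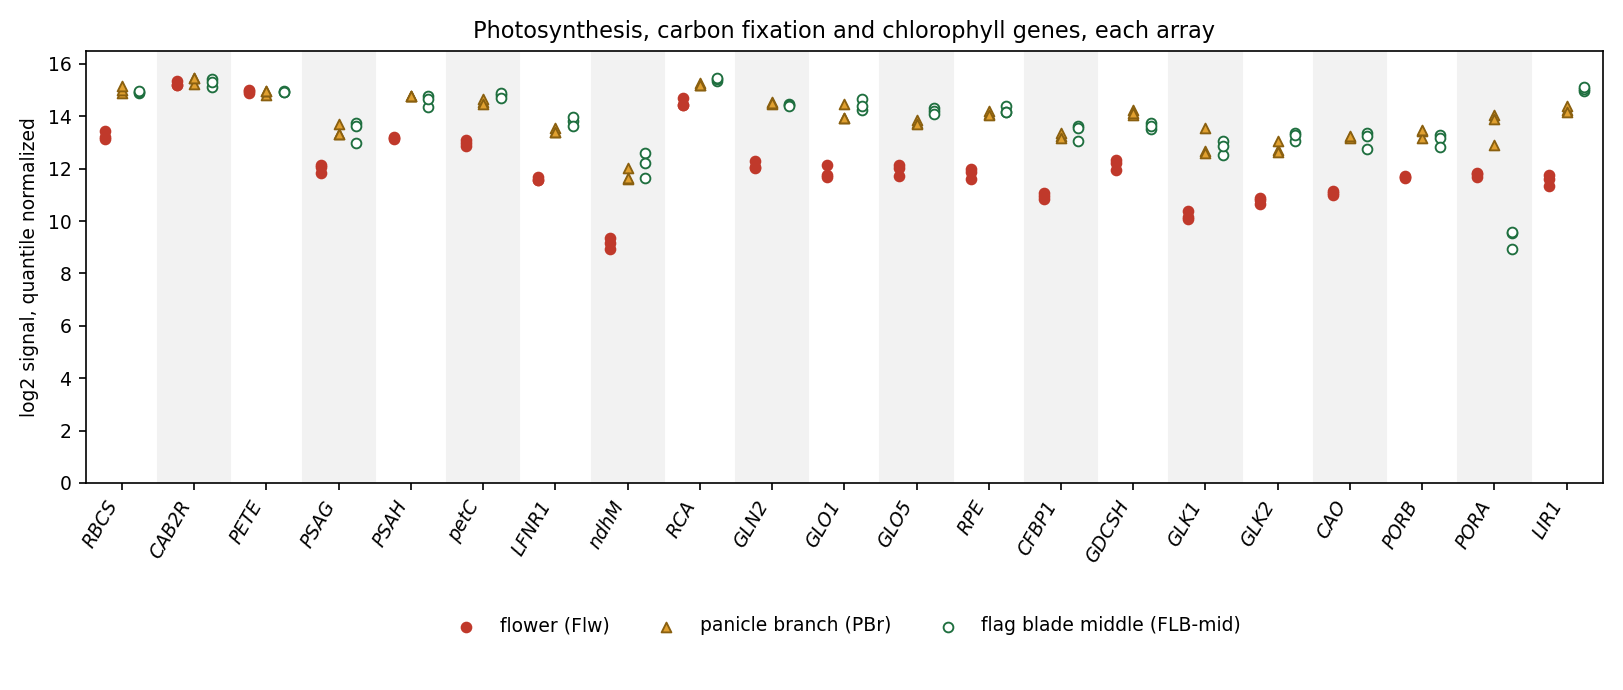
Log2 signal (vertical axis, quantile normalized) of genes of the photosynthetic apparatus, carbon fixation and chlorophyll synthesis on each array of the flower (filled circles), panicle branch (triangles) and flag blade middle (open circles), 3 arrays per organ. Most genes lie lower in the flower while the panicle branch overlaps or lies near the blade, CAB2R and PETE lie at one height in all organs, and PORA lies higher in both panicle organs than in the blade.

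Most genes listed under carbon fixation and photorespiration were lower. Of 12 genes listed there, 9 were lower and none higher, with a median of -1.86 and a range from -6.01 to 1.14. GLN2, the plastid glutamine synthetase that recaptures photorespiratory ammonia, had 12.29, 12.06 and 12.01 in the flower against 14.47, 14.42 and 14.39 in the blade. The organs were clearly apart, 4.94-fold (-2.30 ± 0.20, adjusted p = 2.44e-09). Glycolate oxidases GLO1 and GLO5 differed by -2.56 and -2.26, although another GLO1 probe set with a difference of 0.80 was under 2-fold and went the other way and the mean over its probe sets was -0.88; GLO3 and GLO4 were not called. RPE, the pentose phosphate epimerase, differed by -2.42, and CFBP1, the cytosolic fructose bisphosphatase of sucrose synthesis, by -2.46. GDCSH, the H protein of glycine decarboxylase, differed by -1.46, with another probe set at -0.73 not called. The list also holds CRSH2, an enzyme of plastid guanosine tetraphosphate synthesis and not of carbon fixation, which showed its largest fall at -6.01, and the plastid peroxiredoxin PRXIIE-2 at -1.38.

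Probe sets of one gene disagreed in size for 2 of these enzymes. RCA, Rubisco activase, was under 2-fold at its strongest probe set (14.70, 14.43 and 14.44 in the flower, 15.36, 15.43 and 15.46 in the blade, difference -0.90, adjusted p = 0.00408), while its 3 other probe sets were lower, at -1.25, -1.46 and -1.61. ALDP, the plastid aldolase, was lower by 1.19 at its strongest probe set. All 3 blade arrays read 15.53 there, at the upper end of the range, where an array can saturate. The name of that probe set also marks possible cross-hybridization. Another ALDP probe set had 5.85, 5.95 and 5.28 in the flower against 12.41, 11.26 and 12.41 in the blade, a difference of -6.34 ± 0.91. All 3 ALDP probe sets fell, and the size of the fall depends on which one is read.

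Chlorophyll metabolism followed. The transcription factors GLK1 and GLK2, which activate photosystem and chlorophyll genes, had 10.38, 10.17 and 10.07 and 10.80, 10.87 and 10.63 in the flower against 13.07, 12.53 and 12.85 and 13.35, 13.06 and 13.27 in the blade. The falls were 6.10-fold and 5.49-fold (adjusted p at most 6.01e-08) with no overlap between organs. Of the 11 genes of chlorophyll synthesis, 5 were lower (8 with array medians set equal), among them CAO, which makes chlorophyll b (-2.04), and the protochlorophyllide reductase PORB (-1.41), and CHLH, a magnesium chelatase subunit, had probe sets called in opposite directions. PORA, the reductase of etiolated tissue, was the 1 gene higher: 11.83, 11.68 and 11.79 in the flower against 8.94, 9.56 and 9.59 in the blade, a rise of 5.29-fold. All 4 genes of chlorophyll breakdown, NOL, NYC1, RCCR1 and SGR, were lower, by -1.73 for NOL to -1.12 for SGR. SGR was not called on the deposited scale or without any 1 of 5 arrays, with -0.72 without the third blade array. Its call was also lost with no filter, in the fit of 6 arrays alone and with the replicate number as a block. The mean over all SGR probe sets was -0.94 and not called. In carotenoid synthesis 4 of 6 were lower, with ZEP1, zeaxanthin epoxidase, at -3.17 and the phytoene synthases PSY1 and PSY2 at -1.85 and -1.82.

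Among 22 genes tested in a list of other plastid proteins, matched by name, 14 were lower and 2 higher, with a median of -1.24. LIR1, a light-regulated chloroplast protein, had 11.61, 11.74 and 11.36 in the flower and 14.97, 15.02 and 15.11 in the blade, a fall of 11.0-fold. The FTSH proteases FTSH9, FTSH1, FTSH7 and FTSH2 fell, between -2.32 and -1.84. FTSH3, whose place in the plastid was not checked, rose by 1.55. Fd-GOGAT, which works with GLN2 in ammonia assimilation, differed by -1.98. MEX1, the maltose exporter of the plastid, was the largest rise of the list at 2.73.

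Green genes separated the flower from the panicle branch as well as from the leaf. For the photosynthetic apparatus, carbon fixation and chlorophyll synthesis, 7 of 9, 9 of 12 and 10 of 11 genes were lower in the flower than in the panicle branch, and none was higher. In that contrast 16.5% of all genes were lower and 16.6% higher. Between the panicle branch and the blade none of these genes was lower in the branch, and 2 of 12 and 2 of 11 were higher. Few genes of any kind were called there, 6.84% lower and 8.77% higher. RBCS averaged 13.26 in the flower, 15.02 in the panicle branch and 14.94 in the blade, and GLN2 averaged 12.12 in the flower, 14.51 in the panicle branch and 14.43 in the blade. PORA was higher still in the panicle branch, at 13.62.

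Several sucrose cleavage genes were higher in the flower, while the sucrose synthesis gene SPS1 was not called. Of 18 genes of sucrose synthesis and cleavage, 8 were higher and 2 lower (44.4% and 11.1%), with a median of 0.83. With array medians set equal 5 were higher and 3 lower, with a median of 0.39. Over all genes 22.2% were higher and 20.1% lower. CIN2, the cell wall invertase of grain filling, had 9.63, 9.98 and 9.88 in the flower against 4.00, 2.71 and 0.96 in the blade. The CIN2 arrays did not overlap (7.27 ± 1.38, adjusted p = 1.09e-04; 5.30 on log2(signal + 16)). SUS3, a sucrose synthase of the grain, had 10.73, 10.91 and 10.53 in the flower and 5.24, 5.33 and 2.91 in the blade, a difference of 6.23 ± 0.80 (adjusted p = 7.28e-07; 5.36 on log2(signal + 16)), and the organs were again separate. Sucrose synthases SUS1, SUS4 and SUS2 were higher by 3.47, 1.76 and 1.10, although another probe set of SUS1 was not called, whereas SUS5 was lower by 1.98. SUS5 was not called without the third flower or the third blade array (-1.25 and -1.36), nor SUS2 without the first blade array (0.99), and SUS5 was not called on the deposited scale (-1.47). CIN4, another cell wall invertase, fell: 7.77, 7.53 and 7.22 in the flower against 10.20, 9.85 and 9.45 in the blade. SPS1, the main sucrose phosphate synthase of leaves, had 10.63, 10.68 and 10.69 in the flower and 10.53, 10.72 and 10.61 in the blade, with a difference of 0.05 (95% interval -0.23 to 0.32). The phosphatases SPP1 and SPP2, which finish sucrose synthesis, were higher by 1.56 and 2.11, and SPS6 by 1.24. With array medians set equal SPP1, SPS6 and SUS2 were at 0.88, 0.56 and 0.53 and not called, and with hybridization controls set equal SPS6 and SUS2 were at 0.83 and 0.80 and not called.

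**Figure D3:**
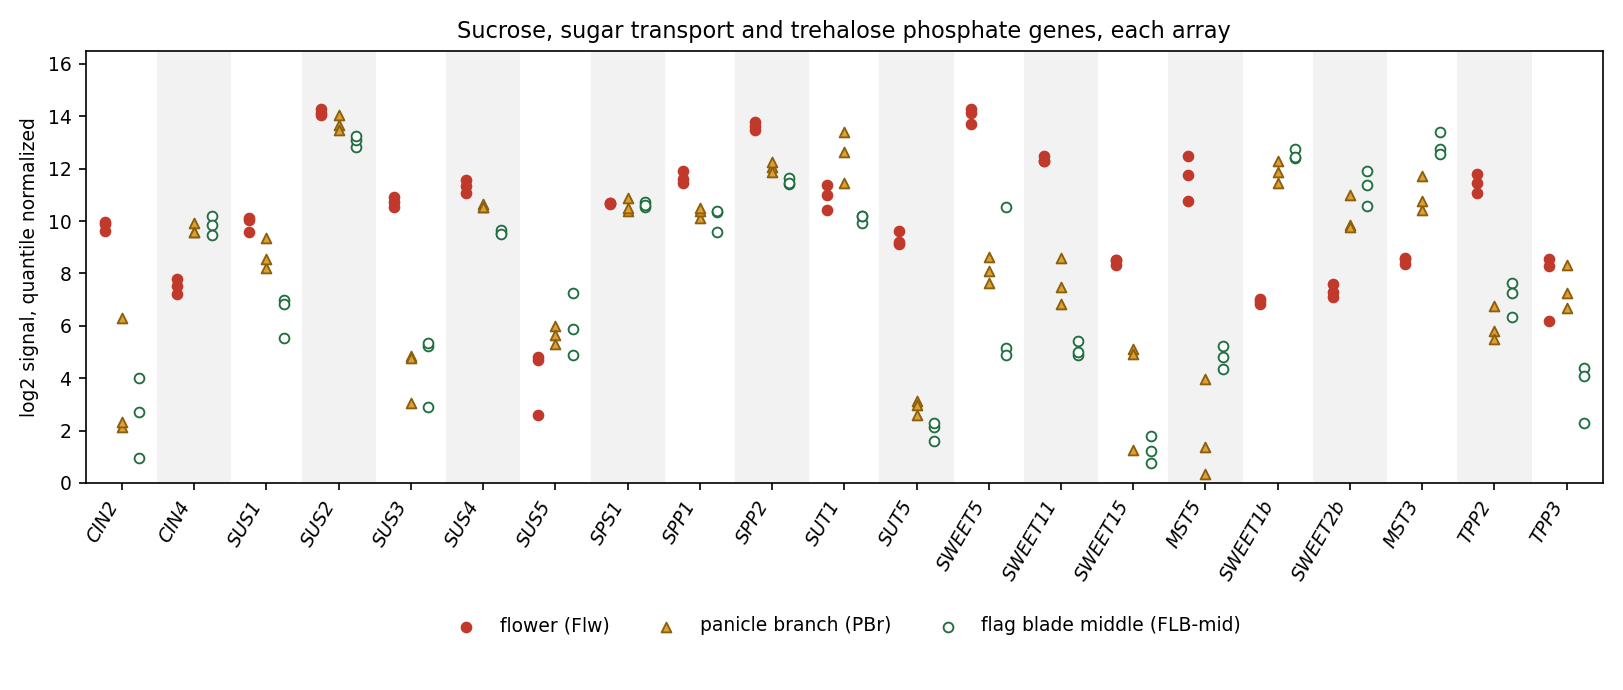
Log2 signal (vertical axis, quantile normalized) of genes of sucrose cleavage and synthesis, sugar transport and trehalose phosphate phosphatases on each array of the flower (filled circles), panicle branch (triangles) and flag blade middle (open circles), 3 arrays per organ. CIN2, SUS3, SUT5, SWEET5, SWEET11, SWEET15 and MST5 lie far higher in the flower than in the blade, SWEET1b, SWEET2b and MST3 far lower, and SPS1 at one height.

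Sugar transporters ran both ways. Of 17 tested, 7 were higher and 5 lower (41.2% and 29.4%, against 22.2% and 20.1% over all genes). SWEET5, a sugar transporter of the SWEET family, had 14.13, 14.26 and 13.71 in the flower against 5.16, 10.52 and 4.87 in the blade, and the monosaccharide transporter MST5 had 11.75, 10.75 and 12.49 in the flower against 4.81, 4.37 and 5.21 in the blade. SWEET5 and MST5 were higher in the flower by 7.18 and 6.86 (adjusted p at most 8.52e-06), with no overlap, and neither had a mean above 8.11 in any other replicated group. The sucrose exporters SWEET11 and SWEET15, which load the filling grain, were higher by 7.26 and 7.19, and the sucrose importer SUT5 by 7.32. SWEET11 was not a flower gene alone: it averaged 12.35 in the flower, 13.03 in node I and 13.01 in node II.

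Other sugar transporters were lower in the flower. SWEET1b had 6.84, 6.94 and 7.01 in the flower against 12.76, 12.39 and 12.44 in the blade. SWEET2b had 7.31, 7.11 and 7.60 in the flower against 11.38, 10.57 and 11.89 in the blade, and MST3 had 8.57, 8.57 and 8.35 in the flower against 12.74, 13.42 and 12.57 in the blade. SWEET1b and MST3 were not confined to the leaf blade: SWEET1b averaged 11.87 in the panicle branch, with a difference from the blade of -0.66 (adjusted p = 0.633), and 11.91 at the top of the sheath, and MST3 averaged 13.90 there. All 3 falls were clear of any overlap, at 48.5-, 15.4- and 21.3-fold (adjusted p at most 6.22e-06). SUT1, the sucrose importer of phloem loading and of pollen, had 11.01, 10.43 and 11.36 in the flower and 9.94, 10.19 and 10.20 in the blade, with a difference of 0.83 that was not called (adjusted p = 0.0562), but was 1.08 and called without the second flower array. SUT1 had its highest group mean in the panicle branch, at 12.50. SUT2M, another sucrose transporter, was lower by 1.32, but another SUT2M probe set at 0.78 was not called, and the mean over its probe sets was -0.27.

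Starch genes were lower where called in the main setting, and trehalose phosphate phosphatases rose. Of 7 starch genes tested none was higher and 3 were lower, the largest being the leaf starch synthase SSII-2 at -2.09, of which 2 other probe sets were not called. Without the second flower array 1 of the 7 was higher and 1 lower, and on log2(signal + 16) 1 was higher and 2 lower. WX, the amylose synthase of the endosperm, had 11.25, 9.52 and 12.34 in the flower and 9.71, 10.09 and 9.51 in the blade at its strongest probe set, a difference of 1.27 that was not called (adjusted p = 0.058), but was 2.03 and called without the second flower array. WX was also called on log2(signal + 16), at 1.26, with the filter at the 75th percentile and with an intensity trend and robust prior. Of its 4 other probe sets 2 were higher, 1 was lower at -4.16 and 1 was not called. Of 8 trehalose phosphate phosphatases, which take part in sugar signalling, 6 were higher and none lower, with a median of 2.87; with array medians or hybridization controls set equal 1 was lower. TPP2 had 11.43, 11.08 and 11.81 in the flower against 7.64, 7.24 and 6.34 in the blade, a rise of 20.6-fold, and TPP3 and TPP4 were higher by 4.07 and 3.64. TPP6 and TPP7 gave -0.80 and -0.63 and were not called. Among 7 hexokinases 3 were higher, and with array medians set equal their median turned negative at -0.14.

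Cell wall loosening proteins were higher almost throughout. Expansins relax the wall of growing cells, and the beta group includes the group 1 pollen allergens of grasses. Of 11 alpha expansins tested 9 were higher and none lower, with a median of 5.33, and of 10 beta expansins 9 were higher and none lower, with a median of 3.87; both kept this direction under each scaling. EXPB10, a pollen allergen type, had 14.95, 14.59 and 15.06 in the flower against 1.94, 6.28 and 5.77 in the blade, which made it the second largest rise of any named gene at 10.20 ± 1.15 (adjusted p = 1.22e-07; 9.20 on log2(signal + 16)). EXPB9, of the same type, and EXPB4 were higher by 7.78 and 7.71, and EXPB8 and EXPB17 by 5.75 and 4.52. EXPA32 had 13.92, 13.69 and 13.70 in the flower and 1.02, 8.98 and 2.78 in the blade, and EXPA26, EXPA29, EXPA7 and EXPA5 were higher by 9.04, 7.17, 6.31 and 5.65. Averaged over all probe sets of the gene, EXPA7 gave 1.35 and EXPB17 0.77, neither called. No blade array overlapped a flower array for EXPB10 or EXPA32. EXPA16, EXPA3 and EXPB7 gave 0.76, 0.42 and 1.12 and were not called, although without the third blade array EXPA16 and EXPB7 were called at 1.02 and 1.58. On the deposited scale EXPA16 and EXPB7 were also called, at 1.32 and 1.59.

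Wall polymer synthesis was also higher in the flower. Of 45 genes of cellulose, mixed-linkage glucan and xylan synthesis, 26 were higher and 3 lower, with a median of 1.94. The secondary wall cellulose synthases CESA4, CESA7 and CESA9 rose together: CESA4 had 11.40, 11.36 and 11.87 in the flower against 2.08, 5.40 and 5.28 in the blade (7.29, or 6.22 on log2(signal + 16)), and CESA7 and CESA9 differed by 5.94 and 6.08. BC1, a protein needed for the strength of secondary walls, differed by 4.99. All 4 genes were separate between organs, and all were higher still at the base of internode I, where CESA4 averaged 14.59. Primary wall synthases CESA1, CESA5, CESA6 and CESA8 rose by 3.25, 2.83, 3.06 and 3.59. CSLF2, a mixed-linkage glucan synthase, rose by 9.06 from a blade mean of 1.38 (6.22 on log2(signal + 16)), CSLC9 by 7.47, CSLD5 by 6.33 and the xylan gene GT43C by 5.80. CSLD1, a gene of root hair growth, was lower by 2.47, a call that was lost under several alternatives, among them any 1 of 5 arrays left out, and was -1.71 without the third flower array. Without the second flower array 1 gene of the list was lower.

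The actin cytoskeleton and its regulators, which drive tip growth in pollen, held some of the strongest flower signals. Of 22 genes of actin, formins and actin depolymerizing factors, 10 were higher and 4 lower (45.5% and 18.2%). Over all genes 22.2% were higher and 20.1% lower. ADF1 had 14.28, 14.26 and 14.23 in the flower against 5.09, 8.44 and 1.93 in the blade, and ADF9 and ADF6 differed by 8.19 and 8.17. ADF1 did not overlap and rose by 9.10 from a blade mean of 5.15 (8.10 on log2(signal + 16), adjusted p = 3.72e-06), while ADF11 fell by 2.61. Of 6 villins, which bundle actin, and pectin methylesterase inhibitors 2 rose, VLN4 by 5.75 and Villin-2 by 2.90. The RAC GTPases Rac6 and Rac2, switches of polar growth, rose by 5.38 and 4.36, and none of the 7 fell, although with array medians set equal 1 was lower and the mean over all Rac2 probe sets was 1.16 and not called. Of 10 tubulins 8 rose and none fell, TUB8 by 5.98 and TUB1 by 5.74, and of 32 kinesins 18 rose and 2 fell (4 with array medians set equal), with KIN5A at 5.86 and KIN14M at -2.50.

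Calcium signalling genes held strong members in both directions. Of 76 calcium dependent kinases, calmodulin-like proteins and CBL partners, 25 were higher and 14 lower (32.9% and 18.4%). Over all genes 22.2% were higher and 20.1% lower. With array medians set equal 16 of the list were higher and 24 lower, so its direction turned. CPK2 had 13.82, 13.90 and 13.43 in the flower against 1.11, 8.81 and 2.01 in the blade, a difference of 9.74 ± 1.48 (7.93 on log2(signal + 16)). The kinases CPK22, CPK21 and CPK29 rose by 8.61, 8.42 and 7.37, the kinase CIPK30 by 7.55, and the calmodulin-like CML28 and CML32 by 9.10 and 7.53. Outside the flower the highest group mean was 6.21 for CPK2 and 4.06 for CML28. CIPK12 and CML5 were the largest falls, at -4.44 and -3.31.

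Few anther genes were called, and meiosis genes were higher or not called. Of 14 genes of anther wall and pollen coat 6 were too low to be tested. Of the 8 genes of anther wall and pollen coat tested, 2 were higher and none lower, against 1 of each with array medians set equal. The share higher was 25%, near the 22.2% over all genes. MIL2, a ligand that limits the number of spore mother cells, differed by 1.98, and GAMYB, the gibberellin-regulated factor of the tapetum, had 10.91, 11.01 and 10.41 in the flower against 8.94, 9.30 and 9.20 in the blade, a difference of 1.63 with no overlap that was 0.98 and not called with array medians set equal. RAFTIN1, a pollen coat protein, gave a difference of 1.87 that was not called (adjusted p = 0.0882), but was 2.70 and 2.45 and called without the second or the third blade array. On the deposited scale RAFTIN1 was 2.39 and called. In meiosis 3 of 5 genes tested were higher: MEL1, the germ cell argonaute, by 3.74, MER3, a helicase of crossover formation, by 2.59 and PAIR2, an axis protein, by 1.62; MER3 lost its call without any 1 of 3 arrays and was 1.97 without the second blade array. MEL1 had 7.21, 8.24 and 7.67 in the flower and 2.68, 5.19 and 4.03 in the blade, below 8.88, the 75th percentile of all values, in every flower array.

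Cell division genes were raised in part. Of 39 cyclins and cyclin dependent kinases 16 were higher (41.0%) and 2 lower (5.1%). Of 26 DNA replication genes 9 were higher (34.6%) and 3 lower (11.5%), against 22.2% and 20.1% over all genes. With array medians set equal the counts were 13 higher and 9 lower for the cyclin list and 8 higher and 5 lower for replication. CYCB2-1, a mitotic cyclin, had 7.92, 7.79 and 8.86 in the flower and 5.05, 0.64 and 5.28 in the blade, and CDKB2-1, its kinase, differed by 3.57. The replication helicase subunits MCM4, MCM5 and MCM3 differed by 6.37, 5.31 and 4.62 from blade means of 0.79, 1.95 and 2.29, or by 3.16, 3.08 and 2.50 on log2(signal + 16). Of 20 genes with ribosomal protein names 3 were higher and 2 lower (15% and 10%), against 0 and 2 with array medians set equal.

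Auxin genes ran both ways, apart from the GH3 enzymes. Of 9 GH3 enzymes, which conjugate auxin or jasmonate to amino acids, 5 were higher and none lower. Over all genes 22.2% were higher and 20.1% lower. GH3-8 had 12.64, 12.20 and 12.48 in the flower against 5.92, 6.74 and 6.19 in the blade, a rise of 71.3-fold with no overlap, and GH3.4 and GH3.1 rose by 5.59 and 4.71. The auxin carriers PIN5a and PIN5C, of the endoplasmic reticulum type, fell by 6.24 and 4.34, while PIN3A rose by 2.40; over 6 genes of auxin synthesis and transport 1 rose and 3 fell, against 2 and 2 on the deposited scale. PIN5a had 5.95, 2.53 and 5.86 in the flower and 11.77, 11.71 and 9.55 in the blade. Of 24 Aux/IAA repressors 7 were higher (29.2%) and 8 lower (33.3%), and as deposited 8 rose and 6 fell. IAA30, IAA14 and IAA18 led the rises at 5.20, 5.15 and 4.76, and IAA6 led the falls at -3.08. Of 17 auxin response factors 5 rose and 4 fell (29.4% and 23.5%), against 3 and 8 with array medians set equal.

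Several genes of gibberellin synthesis were higher in the flower. Of 10 genes 6 rose and 1 fell: CPS1 and KAO, which act early and midway in the pathway, by 4.72 and 4.67, KO2 and GA20OX3 by 1.81 and 1.86, and the DELLA repressor SLR1 by 1.18, whereas the receptor GID1 fell by 1.11. The GID1 fall was under 2-fold without the second flower array, and at -0.97 without the second blade array. SLR1 was under 2-fold with array medians (0.52) or hybridization controls (0.78) set equal, and with array medians set equal 4 of the 10 rose. CPS1 had 12.95, 12.61 and 13.26 in the flower and 7.76, 8.24 and 8.66 in the blade, with no overlap. Of 24 jasmonate genes tested 4 rose and 1 fell, against 3 and 3 with array medians set equal. These are 16.7% and 4.2% in the main setting, under the 22.2% and 20.1% over all genes. TIFY11a, a JAZ repressor, had 13.36, 13.58 and 13.56 in the flower against 4.55, 6.64 and 7.18 in the blade, a rise of 166-fold (adjusted p = 2.90e-07), and the lipoxygenase LOX8 fell by 4.49. The ethylene factor EIL1B had 6.90, 6.15 and 6.71 in the flower against 13.04, 13.11 and 12.48 in the blade, a fall of 78.2-fold, while its relative EIL1A gave -0.41 and was not called. ACO1, which makes ethylene, rose by 4.24, or 2.97 and not called without the second blade array, and the receptor ETR3 fell by 3.32. Among 29 cytokinin genes the response regulator RR41 and the oxidase CKX5 rose by 7.03 and 6.28 and the activating enzyme LOGL9 fell by 5.66. In all 7 cytokinin genes were higher (24.1%) and 8 lower (27.6%), against 5 and 12 with array medians set equal.

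Growth and polarity transcription factors were higher. Of 33 YABBY, SPL, TCP and growth regulating factor genes, 16 were higher and 2 lower (48.5% and 6.1%), with a median of 1.43. Over all genes 22.2% were higher and 20.1% lower. With array medians set equal 14 were higher and 5 lower, and without the first blade array 10 were higher. YAB1 had 14.11, 14.28 and 13.92 in the flower against 8.23, 8.53 and 8.34 in the blade, and YAB3 had 10.39, 10.94 and 9.94 in the flower against 4.66, 4.46 and 1.37 in the blade. Both YABBY genes were clear of overlap, with differences of 5.74 and 6.93 (5.50 for YAB3 on log2(signal + 16)). SPL18 and GRF6 rose by 6.16 and 5.96, and YABBY6 by 4.02, while SPL9 fell by 1.60. Of 42 homeobox genes 14 rose and 5 fell (33.3% and 11.9%), although with array medians set equal 10 rose and 11 fell. The rises were led by the KNOX genes HOS9 and HOS66 at 6.46 and 4.98 and the HD-Zip gene HOX14 at 6.04. HOS9 and HOX14 had means of 10.94 and 7.03 in the flower and of 10.20 and 6.50 in the panicle branch.

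Defence regulators and phytoalexin genes were more often lower than higher. Of 13 NAC and WRKY factors tested 5 fell (8 with array medians set equal) and 1, NAC068, rose by 1.81. The share lower was 38.5%, against 20.1% over all genes. WRKY76, a repressor of the blast response, had 5.96, 4.47 and 5.33 in the flower against 10.01, 8.73 and 11.54 in the blade, a fall by 4.84, and WRKY62 and WRKY24 fell by 3.76 and 3.70. Of 16 terpene and phytoalexin genes 6 fell (37.5%), with a median of -0.08 that was 0.23 on the deposited scale. Those that fell included CPS2, the first enzyme of phytocassane synthesis, at -3.69, CYP71Z6 at -4.81 and CYP99A3 at -2.27, and the 1 that rose, KO2, belongs to gibberellin synthesis. Chitinases ran both ways: Cht7 had 15.40, 15.28 and 15.30 in the flower against 3.04, 2.75 and 2.19 in the blade, the largest rise of any named gene at 12.67 ± 0.97 (adjusted p = 3.39e-10; 10.84 on log2(signal + 16)), Cht9 rose by 7.12, and Cht6 and Cht11 fell by 4.57 and 4.12. Of 21 phenylpropanoid and flavonoid genes 5 rose and 5 fell (23.8% each, near the shares over all genes). There were 5 and 2 on the deposited scale and 5 and 6 with array medians set equal, and 2 fell without the third blade array. Chalcone synthase, CHS, rose by 3.98 at its strongest probe set and at 1 other, with 3 not called, and the coumarate ligase-like 4CLL7 fell by 6.67.

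Some small heat shock proteins and late embryogenesis proteins were higher. Small heat shock proteins HSP17.4, HSP16.9B, HSP18.0 and HSP18.1 rose by 4.45, 4.26, 4.05 and 3.80, while 2 other HSP18.0 probe sets were not called, and the factor HSFA4D fell by 3.73. Over 44 heat shock genes 10 (22.7%, near the 22.2% over all genes) rose and 6 fell, against 9 and 10 with array medians set equal. LEA3, a late embryogenesis protein, had 10.83, 11.44 and 10.54 in the flower and 0.40, 1.15 and 3.78 in the blade, and the dehydrin RAB16A rose by 4.15. Of 7 such genes 4 rose and none fell. LEA3 did not overlap (6.55 on log2(signal + 16)) and was also measured in node I, at 8.35, and the blade tip, at 8.34.

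Metal transporters ran both ways, with single genes among the largest changes. Of 52 metal transporter and chelator genes 18 rose and 15 fell, a split that became 17 to 20 with array medians set equal. The shares were 34.6% and 28.8%, against 22.2% and 20.1% over all genes. YSL13, of the family that carries metal chelates, had 4.91, 1.42 and 2.33 in the flower against 12.24, 12.65 and 12.12 in the blade. The flower was near background for YSL13 and the blade strong (-9.45 ± 0.59, adjusted p = 1.37e-11; -7.63 on log2(signal + 16)), and the panicle branch lay between at 9.13. Its relative YSL7 ran the other way, with 14.52, 14.62 and 14.14 in the flower and 3.11, 10.55 and 6.06 in the blade, and YSL4 and YSL18 rose by 6.72 and 6.67. The zinc transporter ZIP3 rose by 6.43 and ZIP8 fell by 3.80. COPT1, a copper importer, had 7.10, 5.44 and 6.51 in the flower against 12.34, 11.63 and 11.86 in the blade, a fall of 48.3-fold.

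Nitrogen, phosphate and potassium transporters were more often lower. Of 42 tested 9 rose and 16 fell (21.4% and 38.1%, against 22.2% and 20.1% over all genes). The median of -0.06 was 0.19 on the deposited scale. The phosphate transporter Pht1;4 had 6.83, 6.21 and 5.28 in the flower against 11.19, 11.56 and 10.85 in the blade, a fall of 34.2-fold, and the ammonium transporters AMT3-3, AMT1-2 and AMT1 fell by 3.79, 3.34 and 2.72. The sodium transporter HKT1;5, which keeps sodium out of leaves, fell by 4.47. Potassium transporters split: HAK20 had 10.86, 10.76 and 10.00 in the flower and 1.75, 4.84 and 0.80 in the blade, and HAK26 rose by 4.02, while HAK27 and HAK16 fell by 4.65 and 4.59. HAK20 had no mean above 2.46 in any other replicated group.

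Silicon transporters and aquaporins were mixed. Lsi1, the silicon importer, had 12.46, 12.82 and 11.49 in the flower against 9.44, 9.35 and 9.75 in the blade and was 6.68-fold higher (adjusted p = 7.35e-06). Lsi6, which unloads silicon from the xylem, had 9.75, 9.71 and 9.53 in the flower against 11.86, 12.28 and 13.16 in the blade and was 6.80-fold lower (adjusted p = 1.91e-06), with no overlap for either gene. Lsi2, the silicon exporter, was near background in both organs, with means of 2.29 in the flower and 1.76 in the blade, against 12.43 in node I. Among water channels PIP2;4 and PIP2;5 rose by 5.48 and 3.78, and PIP2;7 fell by 6.68, with means of 7.07 in the flower and 13.74 in the blade. Over 24 genes 7 rose and 5 fell (29.2% and 20.8%, against 22.2% and 20.1% over all genes). There were 3 falls without the second flower, the second blade or the third blade array.

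The 15 named genes with the largest rises were, in order, Cht7, EXPB10, MADS7, MADS6, MADS8, FOR1, MADS2, CPK2, EXPA32, MADS17, AldC-alpha, LEA3, ADF1, CML28 and CSLF2, from 12.67 for Cht7 to 9.06 for CSLF2. Most of their blade means were near background, and the order changed on log2(signal + 16), where FOR1, at 9.06, lay above MADS7, at 8.74, and MADS6, at 7.76, below MADS8, at 8.70. FOR1, a leucine-rich repeat protein of floral organ number, had 14.48, 14.76 and 14.39 in the flower and 4.96, 2.90 and 6.03 in the blade but was as strong in node I, at 14.55. AldC-alpha, a cytoplasmic aldolase, had 14.40, 14.25 and 14.39 in the flower and 4.03, 8.91 and 2.21 in the blade, and 6.43 at most elsewhere. The heat map of differences shows which of these rises were shared by other organs.

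**Figure D4:**
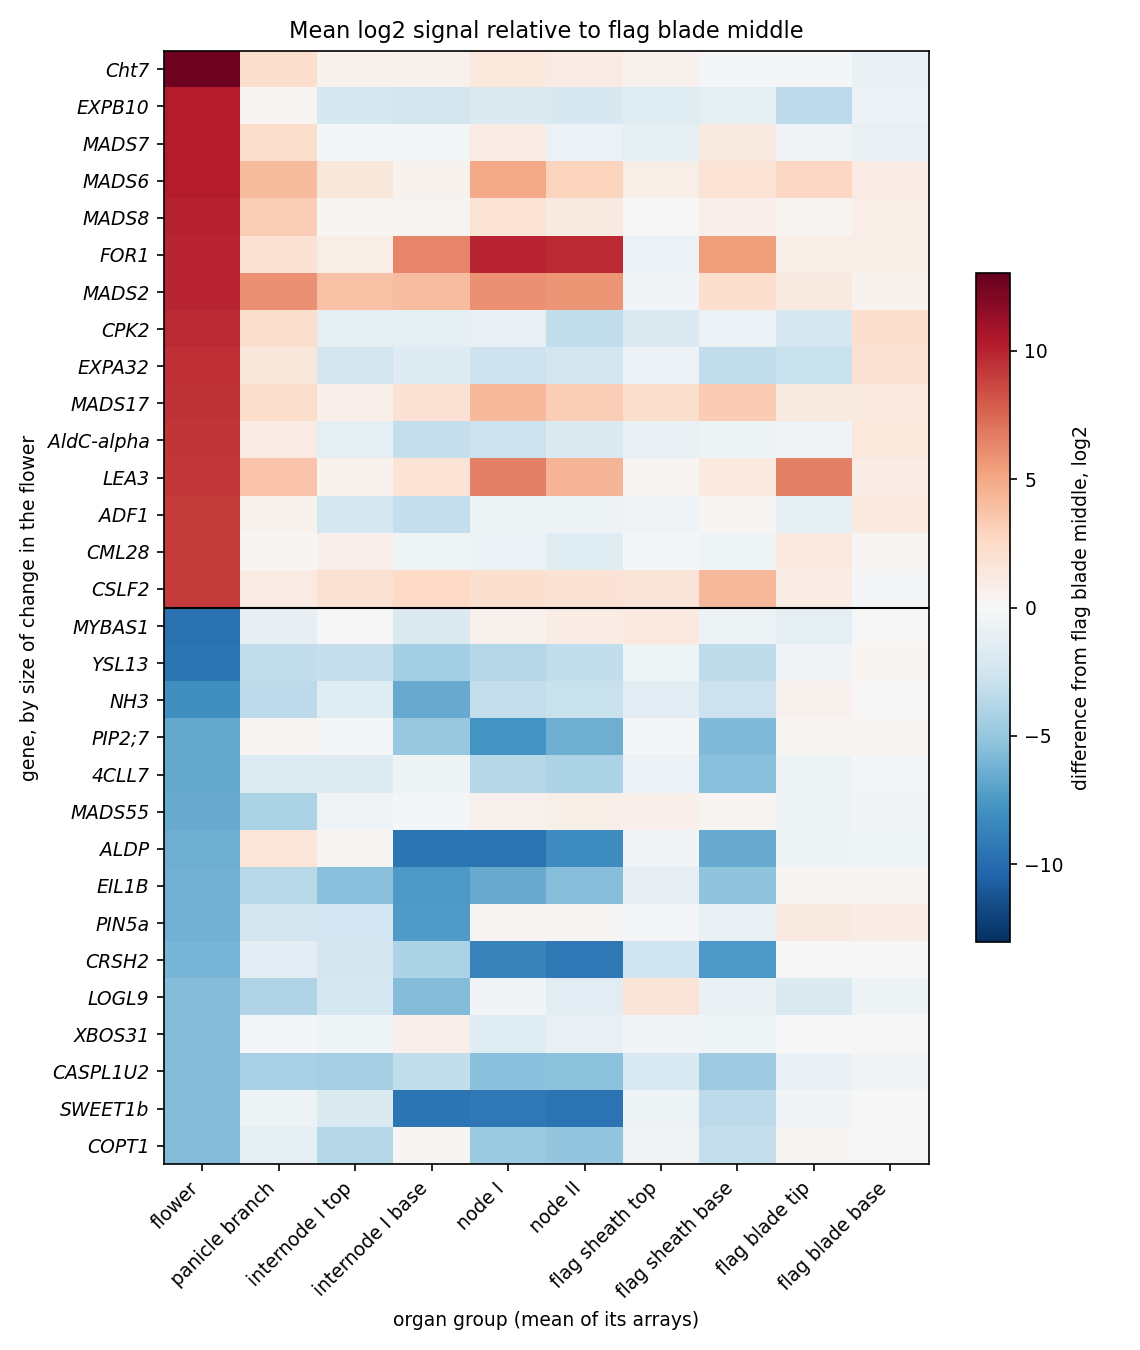
Difference in mean log2 signal from the flag blade middle (colour scale, log2 units, red higher and blue lower than the blade) for the 15 named genes with the largest rise (upper block) and the 15 with the largest fall (lower block) in the flower, in 10 other replicated organ groups, flower first. FOR1 is as high in node I as in the flower, and Cht7, MADS7 and MADS8 are far higher in the flower column than in any other. Several falls, such as ALDP and XBOS31, appear in the flower and not in the panicle branch. The ALDP probe set shown is also low at the base of internode I and in nodes I and II.

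The 15 largest named falls were MYBAS1, YSL13, NH3, PIP2;7, 4CLL7, MADS55, ALDP, EIL1B, PIN5a, CRSH2, LOGL9, XBOS31, CASPL1U2, SWEET1b and COPT1, from -9.67 for MYBAS1 to -5.59 for COPT1. ALDP is ranked here by its probe set with the difference of -6.34. MYBAS1, a MYB factor, had 2.30, 1.21 and 2.03 in the flower against 11.05, 11.92 and 11.59 in the blade. It was near background in the flower and high in the blade (-7.22 on log2(signal + 16)), and it averaged 10.42 in the panicle branch. NH3, a relative of the salicylic acid receptor NPR1, had 1.24, 0.93 and 1.54 in the flower and 9.51, 8.80 and 9.22 in the blade, on a probe set whose name marks possible cross-hybridization. XBOS31, a ubiquitin ligase with ankyrin repeats, averaged 5.74 in the flower, 11.15 in the panicle branch and 11.37 in the blade.

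Some of the largest changes lay in genes without a name in the tables used, of which 4 are given here, chosen after their values were seen. The rise of the unnamed gene LOC4352286 was 11.72, but it averaged 10.46 in the panicle branch too, while LOC4342898 rose by 11.65 and had no mean above 3.45 outside the flower. LOC9268392 showed the largest fall of all genes, with 2.83, 1.53 and 2.03 in the flower against 14.74, 15.08 and 14.56 in the blade. It was also lower in the panicle branch, at 6.22, and at the base of internode I, at 3.52, but averaged 15.17 in node I. LOC4346579 fell by 12.07 and averaged 10.96 in the panicle branch.

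**Figure D5:**
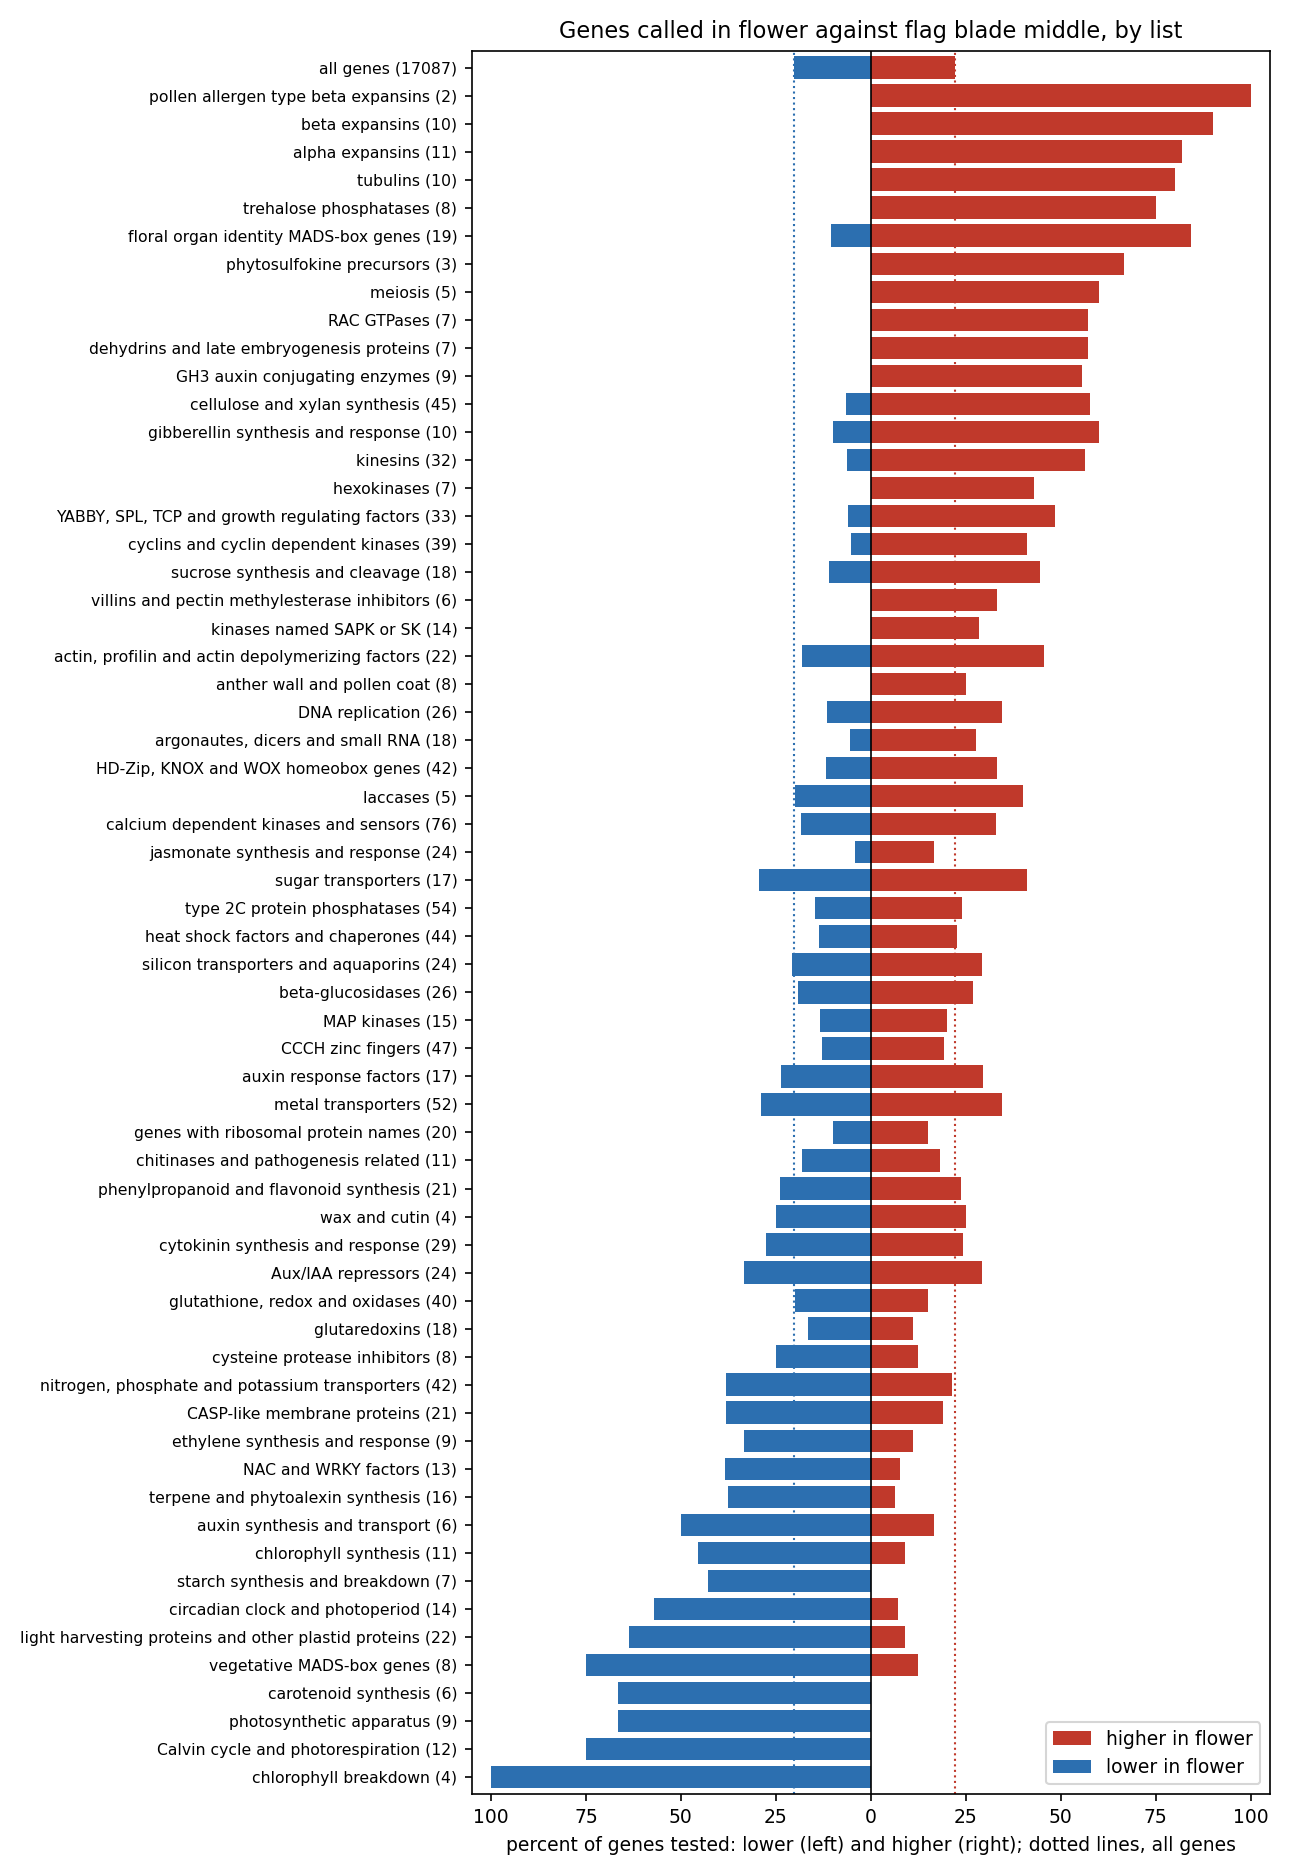
Share of tested genes (horizontal axis, percent) higher in the flower (red, right of 0) and lower in the flower (blue, left of 0) than in the flag blade middle for 61 gene lists and for all 17087 genes (top row), with the number tested beside each list name. Floral MADS-box genes, expansins and tubulins reach furthest to the right, and chlorophyll breakdown, carbon fixation and vegetative MADS-box genes furthest to the left.

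The remaining lists are set against 22.2% higher and 20.1% lower over all genes. Several lay near those shares or held few members, but not all did. Among 54 type 2C protein phosphatases 13 rose (24.1%) and 8 fell (14.8%), and with array medians set equal 7 rose and 19 fell. PP2C33 at 4.42 and PP2C05 at -3.59 changed most. Among 47 CCCH zinc fingers 9 rose (19.1%) and 6 fell (12.8%), against 6 and 19 with array medians set equal. Of 15 MAP kinases MPK17, MPK16 and MPK10 rose by 5.34, 3.76 and 3.06, and MPK13 and MPK7 fell by 2.63 and 1.12 (MPK7 by -0.72 and not called without the first flower array, nor without the first or the third blade array), against 3 and 5 with array medians set equal. Of 40 genes of glutathione and redox 6 rose (15%), the peroxidase PRX74 most at 5.39, and 8 fell (20%), against 2 and 14 with array medians set equal. CASP-like proteins of the membrane numbered 21, of which 4 rose (19.0%) and 8 fell (38.1%), CASPL1U2 most at -5.62. Among 26 beta-glucosidases 7 rose (26.9%) and 5 fell (19.2%), against 4 and 8 with array medians set equal. Without the first or the second blade array 4 beta-glucosidases rose. Of 18 argonaute and dicer genes 5 rose (27.8%) and 1 fell (5.6%), with AGO14 at 6.98. Array medians set equal gave 2 rises of CASP-like proteins, 3 of argonaute and dicer genes and 1 rise and 7 falls of glutaredoxins. Of 14 kinases named SAPK or SK 4 rose (28.6%) and none fell. Of 18 glutaredoxins 2 rose and 3 fell, and of 8 cysteine protease inhibitors 1 rose and 2 fell. With array medians set equal 2 of the SAPK or SK kinases rose and 5 fell, and on the deposited scale 2 cysteine protease inhibitors rose and 1 fell. Of 5 laccases 2 rose and 1 fell, against 2 of each with array medians set equal, of 4 wax genes 1 rose, KCS20 at 6.10, and 1 fell, and of 3 phytosulfokine precursors 2 rose and none fell, against 1 of each with array medians set equal. Leaving out 1 array changed counts of 2 or fewer in the lists of glutaredoxins, cysteine protease inhibitors, laccases, cyclins, hexokinases, ribosomal proteins, NAC and WRKY factors and villins by 1, and the count of lower beta-glucosidases was 8 without the first flower array.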

How the data were processed

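Affymetrix Rice Genome Arrays of 35 rice organ samples were used, of which the 3 flower and 3 flag blade middle arrays carry the comparison. Per the labels, total RNA from an RNeasy Mini kit was labelled with biotin by One-Cycle labelling and hybridized. The authors deposited 1 linear signal intensity per probe set and array, from 0.0536 to 66643 as deposited. The mean intensity after trimming 2% at each end was 500.06 to 500.08 on every array of the deposited table, a common scaling by the authors, and which software summarised probes was not found in the labels or the table.

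Signals were floored at 1, put on the log2 scale and quantile normalized over 35 arrays, since array medians differed by 0.97. This step was set to apply where that gap is over 0.5. Of 57381 probe sets, 123 controls were left out, and 38673 of the other 57258 were tested, each with 5.83 (the median over the whole normalized table) or more on 3 or more of 32 replicated arrays. The number of arrays limits the precision. limma 3.58.1 (lmFit and eBayes, R 4.3.3) was fitted with 1 mean for each of 11 groups, without covariates (21 residual degrees of freedom), and p-values were adjusted by Benjamini-Hochberg over all probe sets tested. A call needed an adjusted p under 0.05 and a 2-fold change. On simulated data with as many probe sets and arrays, the fit called 53 of 100 probe sets changed by 1.5 on the log2 scale. Of 100 changed by 3 it called 69, with 11 false calls in all. No other probe sets were changed there, whereas 37.4% were called in the real data. The adjusted p is stricter when few probe sets change, so these shares do not measure how many real changes were found.

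Of the probe sets tested, 20920 had 1 gene in the platform annotation, 85 had several and were not named, and 17668 were not listed there. A gene was read from its probe set with the highest mean over 32 arrays, and 46 genes had probe sets called in opposite directions. Names came from the platform annotation and from RefSeq gene names. Members and the 61 gene lists were chosen with earlier results of these data known, and false matches of shared names were removed, some after values were seen. Genes were named in the text when among the 15 largest named rises or falls with no overlap and a high level (at or above 8.88, the 75th percentile of all values), among the 5 largest called changes of a list in a direction, or when needed to describe a list. A few genes are in 2 lists (SGR, KO2, MEL1, the plastid peroxiredoxin PRXIIE-2 and the pollen allergen expansins). Hexokinases are not named singly because their numbering differs between sources. Alternatives were 3 other scalings, log2(signal + 16), no filter or a filter at the 75th percentile, leaving out probe sets that may cross-hybridize, the 6 arrays alone, the replicate number as a block, an intensity trend with a robust prior, the mean over a gene's probe sets, and leaving out each array. No label or header used gives a scan date or another batch. No sequences are shown.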

Additional observations from a re-analysis of the deposited data

How the results depend on the processing

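Counts of calls moved with the scaling. Against 6452 higher and 8006 lower probe sets, there were 7968 and 6149 on the deposited scale, 5166 and 11352 with array medians set equal, and 6003 and 8637 with hybridization controls set equal. With a filter at the 75th percentile, where fewer probe sets are tested, 4390 were higher and 4956 lower. Leaving out 1 array gave 5985 to 6298 higher and 7486 to 7859 lower. With the replicate number as a block the counts were 6474 and 7999. Deviations of same-numbered flower and blade arrays correlated at 0.021, -0.012 and 0.001, and not every array correlated best with its own number. Values this low cannot show whether same-numbered samples shared plants or a harvest, which the labels leave unsaid. The other alternatives kept both counts within 1.5 times.

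Over 249 named genes and their alternatives, 3882 of 3982 values kept direction and call, 68 lost the call, 18 gained it and 14 turned in sign. The genes that turned were not called in the reported setting. With array medians set equal and on the deposited scale PETE was -0.66 and -0.0601 and SPS1 -0.63 and -0.0326, and with hybridization controls set equal they were -0.39 and -0.36. The mean over all probe sets gave 0.00695 for CAB2R and 0.21 for TPP7. Leaving out 1 array gave -0.12 to 0.051 for CAB2R, -0.000547 to 0.0965 for SPS1, -0.36 to 0.89 for EXPA3, -0.88 to 1.46 for Lsi2 and -1.30 to 0.13 for MADS34. Of 1952 counts of called list members, 157 moved over 1.5 times, 39 of them with array medians set equal. The causes were not tested. Low signals near the median of the arrays limit the size of differences, which log2(signal + 16) makes smaller.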
